A study of Mus musculus with 2 samples.

Results

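Histones are the proteins around which nuclear DNA is wound. The histone genes described here were taken by symbol: names starting with Hist1h to Hist4h, H2af, H3f3 or H1f, without the pseudogene ending -ps, and with at least 1 protein-coding transcript. Of 91 genes whose symbol matched, 4 carried the ending and 5 had no protein-coding transcript, which left 82 genes of the 55536 in the gene table. They were 67 replication-dependent genes, with the Hist1h to Hist4h symbols, and 15 genes of replacement variants, with the H2af, H3f3 and H1f symbols.

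Total RNA of the gastrocnemius, a calf muscle, was sequenced from 2 female B6CASTF1/J mice, hybrids of B6 and CAST parents, at 2 months of age. The labels name no treatment or engineered allele, and the mice formed 1 group, so no comparison of conditions existed, and 2 values allow no p-value below 0.5. They are called animal 1 and animal 2 after their biological replicate numbers. A single donor record is attached to both libraries, and the labels do not state if it means 1 mouse or the strain. Each SD therefore covers the spread between these libraries, which may be technical.

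Nucleosomes hold pairs of the core histones H2A, H2B, H3 and H4, and a linker histone H1 sits on the DNA between them. Replication-dependent genes lie in clusters and are transcribed mainly while DNA is copied. Their mRNAs end after a short stem-loop instead of a poly(A) tail, and the stem-loop is bound by Slbp, the stem-loop binding protein. Most mRNAs of replacement variants are polyadenylated, and they supply histones in cells that do not divide, such as muscle fibres.

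The stem-loop was read from the annotated transcripts, because it marks the end of mature replication-dependent mRNA. The pattern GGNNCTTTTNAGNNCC was searched on the transcript strand after the stop codon of each GENCODE M21 protein-coding transcript of a histone gene. It was present in 44 of the 67 replication-dependent genes (65.7%) and in 1 of the 15 variant genes, H2afx, which encodes the variant phosphorylated at DNA breaks. Searched anywhere in protein-coding transcripts, it occurred in 72 of 21901 genes (0.329%). Some histone transcripts, such as that of Hist1h4k at 312 bases, are annotated only to the stop codon or little further. In these the search could not find a stem-loop. The 26-base sites of 5 genes are given 5' to 3' with the stem-loop in capitals and the flanking bases in lower case.
Hist1h1c: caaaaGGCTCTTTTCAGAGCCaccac
Hist1h4h: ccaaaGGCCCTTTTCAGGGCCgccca
Hist2h2aa2: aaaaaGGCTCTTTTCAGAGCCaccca
Hist1h4d: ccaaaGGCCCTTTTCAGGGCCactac
H2afx: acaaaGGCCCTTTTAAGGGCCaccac

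In mm10 coordinates the stem-loops lie at chr13:23739512-23739527 (Hist1h1c, plus strand), chr13:23531458-23531473 (Hist1h4h, plus), chr3:96239784-96239799 (Hist2h2aa2, minus), chr13:23581950-23581965 (Hist1h4d, plus) and chr9:44335240-44335255 (H2afx, plus), each in the 3' UTR. The form of Hist1h1c and Hist2h2aa2 was the most frequent, with 26 of the 44 genes. The form of Hist1h4h and Hist1h4d, with another base pair in the stem, was in 7 genes. The distances from the stop codon to the stem-loop were 24 bases in Hist1h1c, 31 in Hist1h4h, 58 in Hist2h2aa2, 36 in Hist1h4d and 46 in H2afx. What followed the stem-loop differed far more. The annotated transcript went on for 35 bases in Hist2h2aa2 and 46 in Hist1h4h, and for 770 in Hist1h4d, 822 in H2afx and 840 in Hist1h1c. A match of these letters is a description of the transcript and does not show that the site is used.

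The coding sequences of several histone genes are nearly the same, which bears on every value below, because a read from a shared stretch cannot be placed on 1 gene. The 13 H4 genes all have a coding sequence of 309 bases that, as background, encodes the same protein in nearly all of them. The 78 pairs of H4 genes were 85.4% to 100% identical, with a median of 93.9%, and 1 pair, Hist1h4m and Hist1h4n, did not differ at all. The first 90 coding bases of 5 H4 genes are given, with capitals where a base differs from Hist1h4m.
Hist1h4m: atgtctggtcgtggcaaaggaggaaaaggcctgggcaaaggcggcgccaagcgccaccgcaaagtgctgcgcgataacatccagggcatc
Hist1h4n: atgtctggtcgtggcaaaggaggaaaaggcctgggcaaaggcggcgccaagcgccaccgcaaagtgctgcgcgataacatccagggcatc
Hist1h4h: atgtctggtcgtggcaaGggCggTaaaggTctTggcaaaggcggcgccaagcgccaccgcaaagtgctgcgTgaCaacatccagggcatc
Hist1h4c: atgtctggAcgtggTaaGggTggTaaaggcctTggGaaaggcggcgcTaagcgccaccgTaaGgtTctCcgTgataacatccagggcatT
Hist1h4d: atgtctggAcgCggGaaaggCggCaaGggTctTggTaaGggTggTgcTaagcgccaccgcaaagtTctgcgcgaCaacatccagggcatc

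These stretches lie on chromosome 13 of mm10 at chr13:21811784-21811873 (Hist1h4m, plus strand), chr13:21832069-21832158 (Hist1h4n, minus), chr13:23531115-23531204 (Hist1h4h, plus), chr13:23698360-23698449 (Hist1h4c, minus) and chr13:23581602-23581691 (Hist1h4d, plus). Over the whole coding sequence, Hist1h4h differed from Hist1h4m at 10 bases, Hist1h4c at 19 and Hist1h4d at 20. Of the 67 replication-dependent genes, 25 shared over 50% of their 100-base windows with another gene's transcripts and 7 shared none. Of the 15 variant genes, none shared over 50% and 9 shared none.

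The libraries held 45014834 and 47771283 expected counts on named genes, of which histone genes had 24219 (0.0538%) in animal 1 and 23246 (0.0487%) in animal 2. Levels are in TPM, a unit scaled to a fixed total that divides by transcript length and so allows genes to be compared. Fast muscle fibre markers were abundant, with 5 of 5 at 1 TPM or more and summed levels of 52927 and 51206 TPM. The animals differed in the summed levels of slow fibre markers (417 and 2321 TPM, 5 of 5 over 2-fold higher in animal 2), adipocyte markers (729 and 96.7 TPM, 5 of 5 over 2-fold lower) and Schwann cell markers (234 and 32.1 TPM, 5 of 5 over 2-fold lower). Satellite cell and lymphocyte markers had 0 of 4 genes each at 1 TPM or more in both animals, with summed levels of 1.98 and 2.62 TPM and of 0.06 and 0.09 TPM, and Cd8a at 0. In bulk RNA fewer cells of a type and less RNA per cell cannot be told apart.

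In both animals, 40 of the 82 histone genes reached 1 TPM: 32 of 67 replication-dependent genes and 8 of 15 variants. Over the whole gene table, 11177 of 55536 genes did. That total includes noncoding genes and pseudogenes, so it is not a like background for genes chosen to be protein-coding. The share among protein-coding genes alone was not counted. By histone type, 3 of 10 H1 genes, 8 of 27 H2A genes, 10 of 18 H2B genes, 8 of 14 H3 genes and 11 of 13 H4 genes reached that level. The second deposited transcript table, made by another method, placed 38 genes at that level, of which 31 were among the 40. No read was counted in either animal for 10 histone genes, of which H1foo, H1fnt, Hist1h1t, H2afb1, H2afb2, H2afb3, Hist1h2aa and Hist1h2ba are known from germ cells. The other two are Hist1h2an and Hist2h3c1. The posterior SD was above 0 for Hist1h2an (1.74 and 1.05 reads), Hist2h3c1 (4.43 and 5.70 reads) and Hist1h2ba (0.51 and 0.49 reads). Summed over all 82 genes, histone RNA came to 696 and 627 TPM. The 4 highest genes, H3f3a, Hist2h2aa2, Hist1h1c and Hist1h4h, held 50.3% in animal 1 and 49.9% in animal 2.

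**Figure D1:**
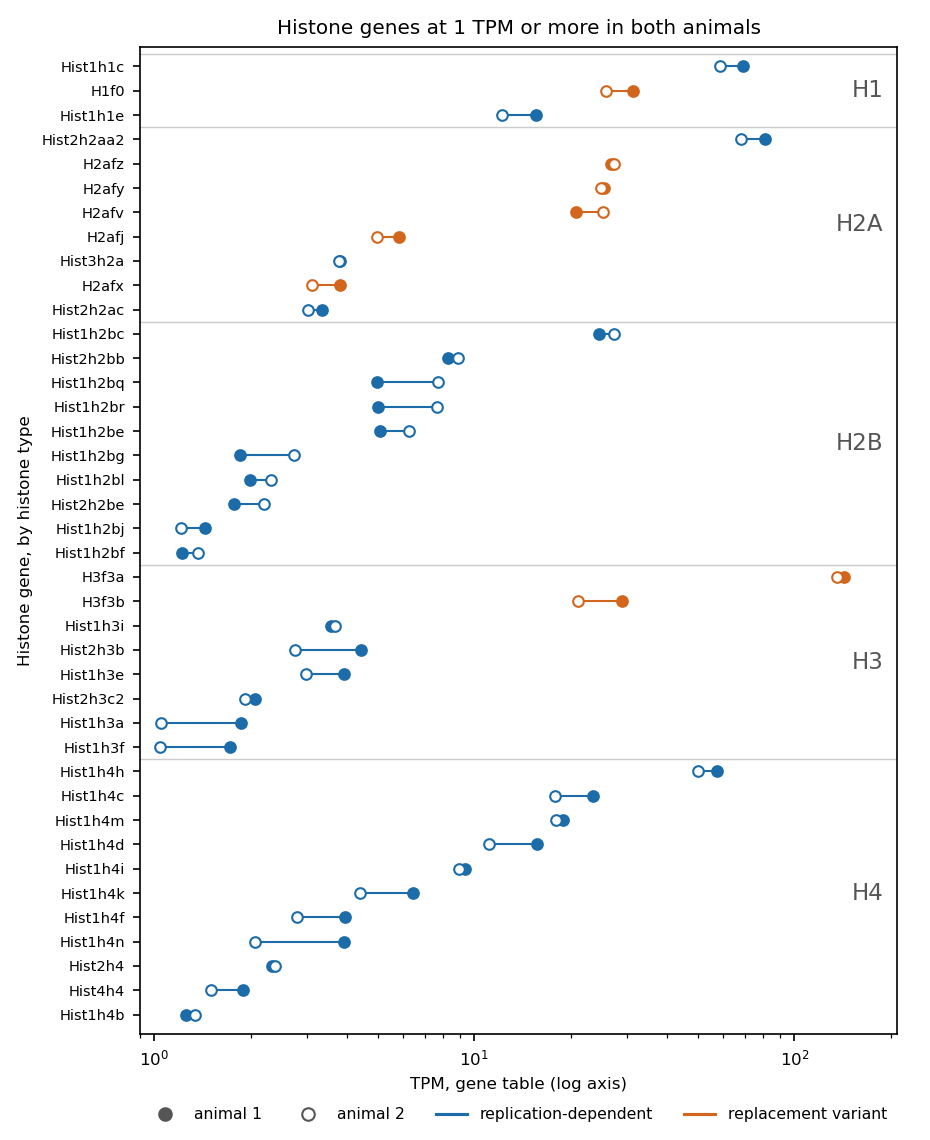
Level in TPM (log axis) of each of the 40 histone genes at 1 TPM or more in both animals, grouped by histone type; filled points are animal 1, open points animal 2, blue replication-dependent genes and orange replacement variants. H3f3a lies at 143 and 136 TPM, to the right of every other histone gene, and 9 of the 10 H2B genes have the open point on the right.

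Replacement variants, 15 genes, held 41.4% of histone TPM in animal 1 and 42.9% in animal 2, a mean of 42.2% ± 1.11 (SD, n = 2). Replication-dependent genes summed to 408 and 358 TPM, a mean of 383 ± 35.9 TPM. By histone type, the division was as follows. For H3, the variants H3f3a and H3f3b held 89.3% and 90.9% of the type's TPM. For H2A, variants held 46.6% and 51.6%, and for H1, 27.9% and 26.8%. H2B and H4 had only replication-dependent genes in this set, which summed to 61.4 and 68.7 TPM for H2B and to 146 and 121 TPM for H4. The 12 replication-dependent H3 genes summed to 20.6 and 15.7 TPM, the lowest replication-dependent sum of the 5 types in the gene table, where those of H4, the partner of H3 in the nucleosome, had the highest. In the second table replication-dependent H2A genes, at 168 and 144 TPM, stood above H4, at 148 and 126 TPM. There the variants' share was 49.5% ± 1.78, and H3 variants held 90.9% and 93.3% of H3 TPM.

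**Figure D2:**
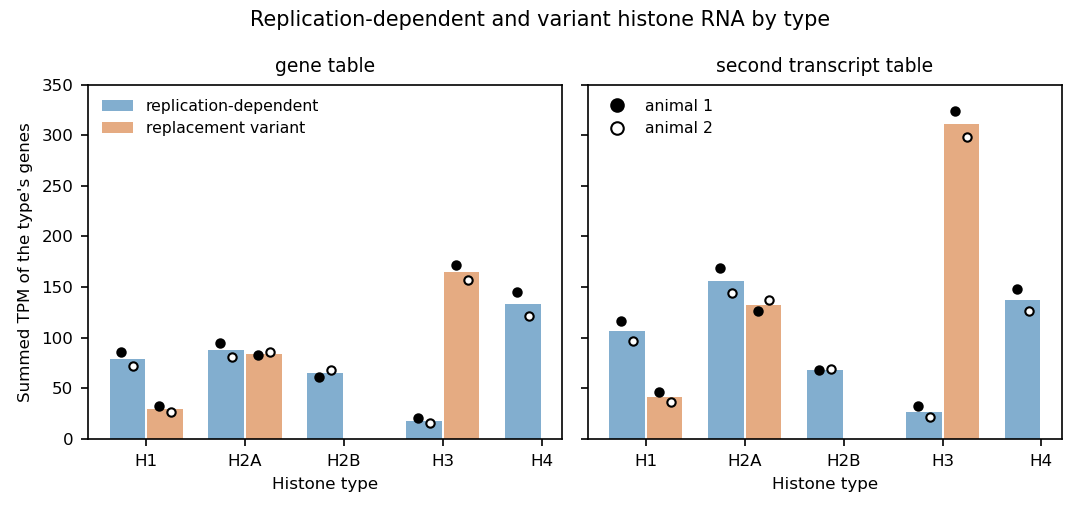
Summed TPM of replication-dependent (blue) and variant (orange) genes for each histone type in the gene table (left) and the second transcript table (right); bars are means and points are the animals. Variants form most of the H3 sum in both tables, and the orange bar is absent for H2B and H4, which have no variant in the set.

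H3f3a, which together with H3f3b encodes the H3.3 variant deposited outside replication, led all histone genes, with 143 and 136 TPM. H3f3b was at 28.9 and 21.1 TPM. Both animals had H3f3a far above H3f3b, a log2 ratio of H3f3b over H3f3a of -2.50 ± 0.27 (SD, n = 2), which exceeded 2 SD. The 2 genes make 1 protein from coding sequences of 408 bases that were only 76.7% identical, and few of their windows were shared (14.9% and 3.42%). Their assignment error, the deposited posterior SD of the read count as a percent of the count, was 0.291% for H3f3a and 0.0831% for H3f3b. H3f3a (mm10 chr1:180800832-180813943, minus strand) overlaps the antisense gene H3f3aos by 160 exonic bases, and H3f3aos had 93 and 86 reads against 4602 and 4772 for H3f3a. Whether the counting used strand is not given in the sources used here.

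H2A.Z, the variant placed beside promoters, is encoded by H2afz and H2afv. H2afz was at 26.8 and 27.3 TPM and H2afv at 20.7 and 25.2 TPM. H2afz was the higher in both animals in the gene table, with a log2 ratio of 0.24 ± 0.18, which was within 2 SD. In the second table it was the lower in both, with -0.19 ± 0.25. H2afy, which encodes macroH2A1, a large variant with an added domain, was at 25.4 and 24.8 TPM. Its paralogue H2afy2 was at 0.46 and 0.40 TPM, from 36 and 33 reads, and the log2 ratio of H2afy over H2afy2 was 5.57 ± 0.09. H2afy2 overlaps the opposite-strand gene Aifm2 by 233 exonic bases.

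H2afj, the H2A.J gene, was at 5.81 and 4.96 TPM and H2afx at 3.82 and 3.12 TPM. In the gene table H2afj was the higher in both animals, with a log2 ratio of 0.62 ± 0.04. The second table turned the order, with -0.58 ± 0.28, so the order of these genes is not settled. The H2afj transcript that led also differed between the tables: H2afj-202 held 68.1% ± 2.15 of the gene's TPM in the first, and H2afj-201 held 89.9% in the second. The 3 copies of H2afb, which encode a short testis variant, had no read in either animal. A count of 0 allows up to 0.320 TPM in animal 1 and 0.301 TPM in animal 2 for each copy, by a limit of 3 reads that covers counting error only.

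Among linker histones, Hist1h1c was the highest, at 68.9 and 58.6 TPM, followed by H1f0 at 31.4 and 25.7 TPM and Hist1h1e at 15.6 and 12.2 TPM. H1f0 encodes the linker variant known from cells that have stopped dividing. The order was the same in both animals and both tables: Hist1h1c exceeded Hist1h1e by a log2 ratio of 2.20 ± 0.09, and H1f0 was below Hist1h1c by a log2 ratio of -1.16 ± 0.04. Both exceeded 2 SD. H1fx, another replacement linker, was at 1.73 TPM (73 reads) in animal 1 and 0.56 TPM (25 reads) in animal 2. The ratio of H1f0 over H1fx was 4.70 ± 0.84 on the log2 scale. The remaining linker genes were low in TPM: Hist1h1d was at 0.34 and 0.29 TPM, Hist1h1a at 0.62 and 0.43 TPM and Hist1h1b at 0.25 and 0.16 TPM. Hist1h1d had a mean of 89.9 reads, on an annotated transcript of 7425 bases, against 13 for Hist1h1a and 5 for Hist1h1b. In the second table Hist1h1d was at 1.08 and 0.999 TPM. H1foo, the oocyte linker, and H1fnt and Hist1h1t, known from the testis, had no read. Of the 7 paralogue ratios computed, 6 exceeded 2 SD in each table. Among the 6 was H2afj over H2afx, whose sign was opposite in the tables, so passing 2 SD does not settle an order.

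Among replication-dependent H2A genes, Hist2h2aa2 was the highest in the gene table, at 81.2 and 68.0 TPM. Its twin Hist2h2aa1 was at 0.87 and 0.97 TPM. The twins lie on chromosome 3 (mm10 chr3:96239749-96240276, minus strand, and chr3:96245497-96246082, plus strand), their coding sequences of 390 bases were identical, and 100% of the windows of Hist2h2aa2 were found in another gene. The second table gave the reverse, 0 reads on Hist2h2aa2 and 1153 and 1024 on Hist2h2aa1. The sum of the twins was 1328 and 1187 reads in the gene table. The sum does not depend on how the twins divide reads between themselves, but it can depend on reads shared with other genes. Hist2h2aa1 overlaps Gm20634 by 529 exonic bases on the same strand, and Gm20634 had 278 and 345 reads. Outside the twins, Hist3h2a was at 3.82 and 3.77 TPM, overlapping Trim17 by 708 exonic bases on the same strand, and Hist2h2ac at 3.34 and 3.02 TPM. Of the 18 replication-dependent H2A genes, Hist2h2aa2, Hist3h2a and Hist2h2ac were the 3 at 1 TPM or more in both animals in the gene table.

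H2B had no variant gene in the set and a broad spread of low levels. Hist1h2bc led with 24.6 and 27.4 TPM, followed by Hist2h2bb with 8.29 and 8.89 TPM. Hist1h2bq was at 4.98 and 7.73 TPM, Hist1h2br at 4.99 and 7.64 TPM and Hist1h2be at 5.06 and 6.27 TPM. Hist1h2bq and Hist1h2br have identical coding sequences of 402 bases in their longest transcripts, and their assignment errors were 55.1% and 54.5%, the largest of any histone gene with a mean of 50 reads. Hist1h2be shares 496 exonic bases with Hist1h1e on the same strand, and 73.4% ± 3.37 of its TPM was on Hist1h2be-203, a transcript annotated as noncoding. Hist1h2ba, known from the testis, had no read.

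All 13 H4 genes had reads, and 11 reached 1 TPM in both animals. Hist1h4h was the highest, at 57.3 and 50.01 TPM, followed by Hist1h4c at 23.5 and 17.8 TPM, Hist1h4m at 18.9 and 18.0 TPM and Hist1h4d at 15.7 and 11.1 TPM. Hist1h4i was at 9.34 and 8.96 TPM. The second table kept Hist1h4h at the top, at 108 and 100.1 TPM, and placed Hist1h4c at 8.32 and 1.06 TPM and Hist1h4d at 0.361 and 0.375 TPM. Its reads on Hist1h4h were fewer, 511 and 498 against 800 and 743 in the gene table. All H4 genes together had 968 and 798 reads in the second table, against 3000 and 2603 in the gene table. Hist1h4d shared no window with any other gene, and its reads numbered 615 and 463 in the gene table against 9 and 10 in the second. The cause of this gap was not tested.

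Replication-dependent H3 genes were low. The highest were Hist1h3i at 3.58 and 3.68 TPM, Hist2h3b at 4.42 and 2.76 TPM and Hist1h3e at 3.91 and 2.99 TPM, chosen for naming after their values were seen. All stayed under the 21.1 TPM of H3f3b in animal 2. Hist2h3c1 was listed at 0 reads, and with its near copies Hist2h3b and Hist2h3c2 it formed a group of 136 and 114 reads. Gm20634, on the same strand, overlaps Hist2h3c1 by 1825 exonic bases and had 278 and 345 reads. Whether some of those belong to Hist2h3c1 was not tested.

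The replication-dependent genes lie in 4 places. The chromosome 13 cluster, 54 genes between mm10 positions 21715763 and 23934851, held 298 and 262 TPM with 23 genes at 1 TPM or more in both animals. The chromosome 3 cluster, 10 genes between 96219865 and 96270132, held 105 and 90.6 TPM with 7 such genes. The 2 genes on chromosome 11 held 3.99 and 3.87 TPM, and Hist4h4 on chromosome 6 was at 1.9 and 1.5 TPM.

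Annotated 3' ends divided the replication-dependent genes in another way. In 22 genes the transcript ended within 100 bases after the stem-loop, in 22 it ran on for longer, and in 23 no stem-loop was annotated. Some of the 23, such as Hist1h4k, have little or no annotated sequence after the stop codon. For those the search cannot show that a stem-loop is absent. Genes ending near the stem-loop held 44.7% and 42.9% of replication-dependent TPM, with 10 at 1 TPM or more in both animals. Genes running on held 38.8% and 37.3%, with 13 at that level. By reads the order was the other way, 2673 and 2394 reads near the stem-loop against 7865 and 7119.6 in genes running on, since TPM divides reads by length. The poly(A) signal AATAAA was in the last 50 bases of 9 of the 22 genes running on and of 0 of the 22 ending near the stem-loop. Which end the RNA of these libraries had was not analysed here.

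Promoters were compared because replication-dependent genes are, as background, transcribed together when DNA is copied. RefSeq promoters (GRCm38.p6, 250 bases before to 50 after the start) were found for 62 of 67 replication-dependent and 14 of 15 variant genes. CCAAT or its complement ATTGG was in 85.5% of the replication-dependent promoters, 71.4% of the variant ones and 37.9% of all 27025. All matched H1, H2A, H2B and H3 replication-dependent promoters held it, against 3 of 12 H4 promoters. TATAAA or its complement TTTATA was in 56.5%, 7.14% and 14.2%. The promoters of 3 highly expressed genes are given, with any match of these motifs in capitals.
Hist1h1c: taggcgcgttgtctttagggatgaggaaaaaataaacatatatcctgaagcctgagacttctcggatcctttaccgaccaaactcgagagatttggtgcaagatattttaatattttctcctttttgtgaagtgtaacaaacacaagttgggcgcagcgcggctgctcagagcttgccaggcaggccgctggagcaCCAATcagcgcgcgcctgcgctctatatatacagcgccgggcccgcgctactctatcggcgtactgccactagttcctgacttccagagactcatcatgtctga
Hist1h4h: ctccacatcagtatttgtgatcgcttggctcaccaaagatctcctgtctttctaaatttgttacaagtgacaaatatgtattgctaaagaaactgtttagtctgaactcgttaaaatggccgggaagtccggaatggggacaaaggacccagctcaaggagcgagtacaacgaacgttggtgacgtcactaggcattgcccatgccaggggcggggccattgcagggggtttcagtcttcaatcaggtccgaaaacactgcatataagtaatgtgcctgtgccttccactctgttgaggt
H3f3a: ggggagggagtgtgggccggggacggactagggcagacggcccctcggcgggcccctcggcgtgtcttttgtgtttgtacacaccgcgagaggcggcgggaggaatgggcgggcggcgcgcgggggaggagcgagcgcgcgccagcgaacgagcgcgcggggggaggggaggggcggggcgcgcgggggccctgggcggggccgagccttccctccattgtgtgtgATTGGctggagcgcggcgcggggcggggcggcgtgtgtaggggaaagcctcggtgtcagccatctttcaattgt

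They are at chr13:23738557-23738856 (Hist1h1c, plus strand), chr13:23530794-23531093 (Hist1h4h, plus) and chr1:180813556-180813855 (H3f3a, minus). Hist1h1c and H3f3a each held 1 CCAAT in either orientation and no TATAAA, and Hist1h4h held neither. The absence says only that these letters are not in this window.

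Between the animals, histone genes were compared as log2 ratios of expected counts, animal 2 over animal 1, scaled with edgeR's TMM factors. Of the 31 histone genes with a mean of 50 reads or more, 23 replication-dependent and 8 variant, 0 were 2-fold or more apart, beside 503 of 12304 genes (4.09%) over the whole table. The ratios ran from -0.61 (Hist1h3f) to 0.82 (Hist1h2bq), 15 above and 16 below 0, with a median of -0.03 against 0.02 for all genes. There was no replicate of either library, so these are differences between 2 libraries. Intervals given are exact binomial at 95% and cover counting error only.

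By histone type, each of the 6 H2B genes with a mean of 50 reads stood higher in animal 2 (median log2 ratio 0.42): Hist1h2bc at 978 and 1159 reads had a log2 ratio of 0.27 (0.15 to 0.39), and Hist1h2be at 403 and 525 reads had 0.41 (0.22 to 0.60). They were higher under every scaling tried, and in the second table the 3 H2B genes with a mean of 50 reads were higher too. Hist1h2bq and Hist1h2br had the largest ratios, 0.82 (0.33 to 1.35) and 0.71 (0.21 to 1.24), on counts whose assignment error was over 50%. The leading transcripts of these 2 genes were given the same TPM, 4.97 in animal 1 and 7.64 in animal 2. The pair therefore does not give 2 separate observations among the 6 or in their median. Below 50 reads, Hist1h2bk (35.4 and 0 reads), Hist1h2bn (11.2 and 0 reads) and Hist1h2bp (6.98 and 0.34 reads) were lower in animal 2, with counting intervals of the log2 ratio that ended at -3.14, -1.30 and -0.50. Their assignment errors were large, at 263% for Hist1h2bp, 37.2% for Hist1h2bk and 33.7% for Hist1h2bn. The values of Hist1h2bk and Hist1h2bn are from animal 1 alone, since a count of 0 gives no percent.

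The 4 H1 genes stood lower in animal 2 (median -0.15), but with spike-in scaling 3 of 4 were higher and the median was 0.05. H3f3b, at 1465 and 1145 reads, had a log2 ratio of -0.33 (-0.44 to -0.22) and stayed below 0 under every scaling. H3f3a, with 4602 and 4772 reads, had 0.08 (0.02 to 0.14), and -0.03 by library size alone, while its TPM was the lower in animal 2. H2afv was higher in animal 2, at 811 and 991 reads and 0.31 (0.18 to 0.45). The H4 genes had a median of -0.08, which was 0.12 with spike-in scaling. Spike-in scaling moved the median of all genes to 0.21. The slow fibre, adipocyte and Schwann cell levels given above differed between the same animals, and their part in these ratios was not tested.

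**Figure D3:**
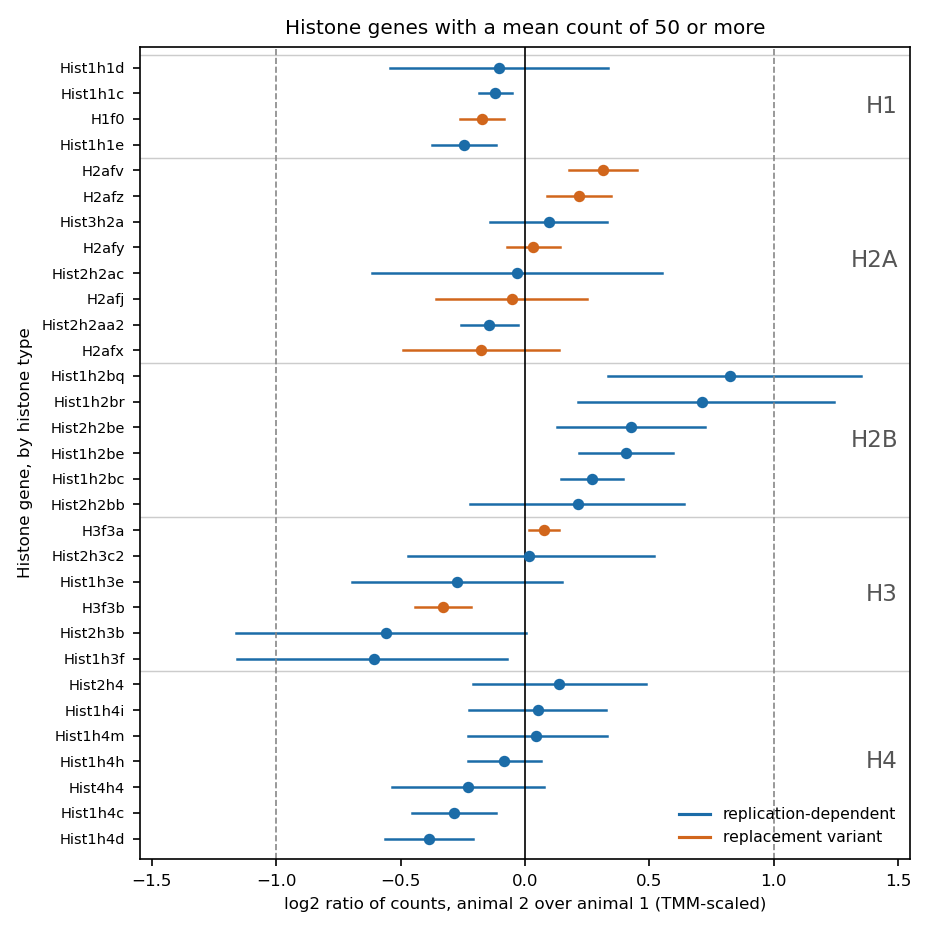
log2 ratio of TMM-scaled counts, animal 2 over animal 1, for the 31 histone genes that averaged 50 reads or more; bars are exact binomial 95% intervals from read counts only, and dashed lines mark 2-fold. All points lie between the dashed lines, with the 6 H2B genes right of 0 and the 4 H1 genes left of it.

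The 2 deposited tables, made from the same reads by different methods, were then set side by side. Of 54 histone genes that averaged 1 TPM or more in either, 25 were 2-fold or more apart (13 higher and 12 lower in the second table), beside 2076 of 13030 genes (15.9%) over all. All 25 were replication-dependent, of 45 such genes, and 0 of 9 variants were. The variant H3f3a fell just short, higher in the second table by a log2 ratio of 0.998. The median log2 ratio of the second table over the gene table was 0.44 for histone genes and 0.56 for all genes, so levels in the second table were higher in general. On the log2 scale of TPM with 0.1 added, the genes lowest in the second table were Hist2h2aa2 (-9.54), Hist1h2br (-5.97), Hist1h4k (-5.76), Hist1h4d (-4.83) and Hist1h2bq (-4.61). The highest were Hist2h2aa1 (7.06), Hist1h2ad (2.52), Hist1h3b (2.47), Hist1h2ai (2.26) and Hist1h2bf (2.18). In the second table Hist1h2br and Hist1h4k were listed at 0 in both animals. That table subtracts about 338 and 344 bases from the length of long transcripts, against 99 in the gene table, and less from short ones: the shortest histone transcript, of 312 bases, kept an effective length of 72.5 and 72.0 bases.

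**Figure D4:**
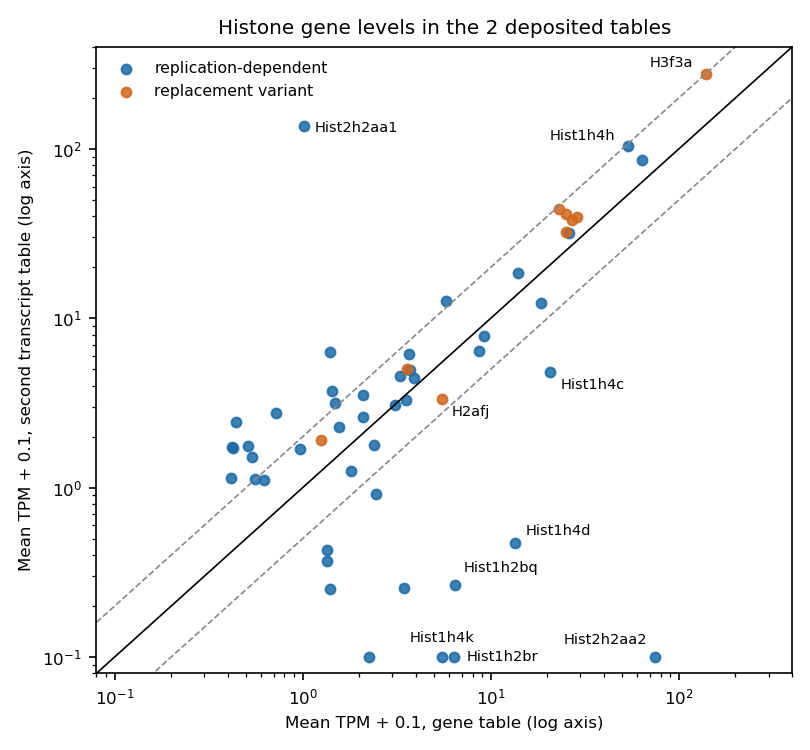
Mean TPM + 0.1 over both animals of the 54 histone genes in the gene table (x, log axis) and the second transcript table (y, log axis); the solid line is equality and dashed lines are 2-fold. Replacement variants (orange) stay within the dashed lines, H3f3a almost on the upper one, while the 25 genes outside them are all replication-dependent (blue).

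Among the 31 genes with a mean of 50 reads or more, the assignment error exceeded 10% in 5, beside 266 of 12304 genes (2.16%). The 5 were Hist1h2bq (55.1%), Hist1h2br (54.5%), Hist1h4m (12.3%), Hist2h3b (11.6%) and Hist2h3c2 (11.1%). A posterior SD of 0 was given for 6 of the 31 histone genes and for 9780 of 12304 genes. Of the 6 histone genes with over 50% of windows shared, 5 exceeded 10%. The exception was Hist2h2aa2, at 2.11%, the twin that the second table listed at 0. Of the 25 with 50% or fewer shared, 0 did. Hist2h2aa2 thus had a small assignment error in 1 table and no read in the other.

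**Figure D5:**
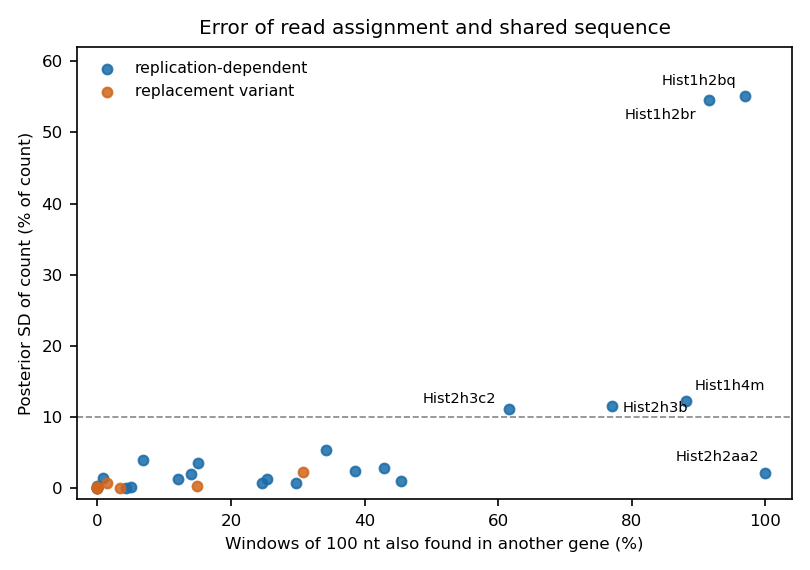
Posterior SD of the read count as a percent of the count (y) against the percent of a gene's 100-base windows that also occur in another gene (x), for 31 histone genes; blue points are replication-dependent, orange points replacement variants, and the dashed line marks 10%. The 5 genes above the line all lie beyond 50% shared windows, and Hist2h2aa2 lies below it at 100%.

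Of 43 histone genes that averaged 1 TPM or more, 9 had more than 1 annotated transcript, and in each the leading one took over 50% of the TPM. The same transcript led in the second table in 3 of them: H2afz-201 (94.2% ± 7.41), Hist1h2be-203 and H2afy-202 (65.2% ± 2.89). H3f3a-201 held 54.3% ± 0.382 in the gene table and H3f3a-207 61.0% in the second. H3f3b-201 held 50.2% ± 0.601, and H3f3b-202 led in the second table with 55.8%. The gene totals of H3f3a and H3f3b in the 2 tables were within 2-fold of each other, H3f3a only just. The log2 ratios, second table over gene table, were 0.998 for H3f3a and 0.37 for H3f3b.

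The other genes of histone supply were counted in 6 lists of 80 genes, of which 55 reached 1 TPM in both animals. Over the whole gene table, noncoding genes and pseudogenes included, 11177 of 55536 genes reached that level. Stem-loop processing had 11 of 13, led by Sympk, a scaffold of the cleavage complex (30.9 and 29.2 TPM), Cpsf3, the nuclease that cuts histone pre-mRNA (9.61 and 7.52 TPM), and Cstf2t (7.19 and 7.94 TPM). Slbp itself was at 3.28 and 2.75 TPM. Chaperones and deposition factors had 20 of 23, led by Nap1l4 (67.5 and 75.0 TPM), which carries H2A and H2B, Npm1 (47.9 and 46.3 TPM) and Ncl (40.4 and 36.5 TPM). Hira, which deposits H3.3, was at 10.03 and 8.08 TPM. Chaf1a and Chaf1b, subunits of the complex that deposits H3 behind the replication fork, were at 0.24 and 0.21 TPM and at 0.13 and 0.09 TPM, and Asf1b at 0.02 and 0.15 TPM.

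H2A.Z exchange complexes had 11 of 11, led by Znhit1 (28.1 and 28.6 TPM), Srcap, the ATPase of the complex named after it (20.2 and 17.0 TPM), and Vps72, which binds H2A.Z (19.0 and 17.6 TPM). The response to phosphorylated H2afx had 8 of 8, led by Baz1b, the kinase of its terminal tyrosine (13.4 and 13.2 TPM), Rnf8 (7.78 and 7.2 TPM) and Trp53bp1 (5.58 and 5.72 TPM). Histone-like genes outside the symbol rule had 0 of 7. Cenpa, the centromeric H3, was at 0.86 and 1.29 TPM, Hils1 at 0 and 0.03 TPM, and the other 5 were at 0.

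Genes of dividing cells had 5 of 18 at 1 TPM or more in both animals, led by Pcna (8.40 and 8.20 TPM), Mcm7 (4.05 and 3.07 TPM) and Ccne2 (2.78 and 2.82 TPM). Mki67 was at 0.03 and 0.03 TPM, Top2a at 0.12 and 0.04 TPM, and Ccnb1 at 0 in both. The histone genes called replication-dependent, by symbol alone, summed to 408 and 358 TPM beside these levels of genes of dividing cells. Of the reads of those histone genes, 64.7% and 62.5% were on genes annotated to run over 100 bases past the stem-loop. Of their TPM, these genes held 38.8% and 37.3%, less than the 44.7% and 42.9% of genes ending within 100 bases after it. Whether the RNA of the replication-dependent genes came from dividing cells was not tested. No gene of the 6 lists with a mean of 50 reads or more was 2-fold apart between the animals, beside 503 of 12304 genes (4.09%) over all. Genes named outside the rule given with the methods, among them Slbp, Hira, Chaf1a, Chaf1b, Asf1b, Mki67, Top2a, Ccnb1 and the lower histone genes, were chosen after their values were seen.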

How the data were processed

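Total RNA-seq of 2 libraries was used. The gene table holds expected counts and TPM that the authors deposited, with a posterior SD of each count (another unit, in reads), and the first transcript table adds, as a percent, the part of a gene's TPM on each transcript, as the file headers show. Estimated counts and TPM deposited by the authors fill the second transcript table. The file lists name mm10 and GENCODE M21. Which aligner, counting tool and strand setting the authors used is not given in the sources used here. Reads of a B6 by CAST cross were counted on a B6 genome, and loss of CAST reads was not analysed here.

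Genes were matched by identifier. The 26249 rows without a gene name held 4 and 5 reads (8.84e-06% and 1.04e-05% of counts) and were left out of library sizes, as were spike-ins. Ratios between animals used expected counts rounded for the TMM factors, a prior count of 0.5 and genes with a mean of 50 reads. Ratios of TPM used a pseudocount of 0.1. A difference was called at 2-fold, a level at 1 TPM, and a ratio of paralogues where it exceeded 2 SD. No p-value was computed. Means are ± SD over 2 libraries. Procedures were checked on simulated counts.

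The members, lists and tests were chosen with earlier results of these data known. The genes named were all variants, the 12 highest replication-dependent genes, those 2-fold apart between animals, the 5 furthest apart in each direction between tables, the 5 of largest assignment error and the 3 highest of each list. The 100-base limit after the stem-loop was set after the sequences were seen. Alternatives were spike-in scaling, DESeq2's size factors, unscaled library sizes, other filters, levels, pseudocounts and prior counts, the second table, and each library left out. The tools were edgeR 4.0.16 and DESeq2 1.42.0 in R 4.3.3, and in Python 3.11.15 the packages scipy 1.17.1, pandas 2.3.3, numpy 2.4.6 and matplotlib 3.10.9.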

Additional observations from a re-analysis of the deposited data

Results flagged for a closer look

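Reads were also listed on histone-like loci outside the set, which no comparison used. Hist1h2al, annotated as a processed pseudogene, was at a mean of 14.2 TPM (14.9 and 13.6 TPM, from 134 and 131 reads), and it was at 0 in the second table. H3f3c, annotated likewise, was at a mean of 3.65 TPM (4.45 and 2.84 TPM), with posterior SDs of 14.2 and 13.8 reads on 52.3 and 35.5 reads, and was also at 0 in the second table. There were no control samples for either.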

How the results depend on the processing

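Leaving out either library leaves the value of the other, which says nothing about stability. At a level of 5 TPM, 17 histone genes passed in both animals, against 40 at 1 TPM, and 32 of the 80 genes of histone supply against 55. The variants' share of histone RNA was 49.5% in the second table and 50.4% by expected counts, against 42.2%, and the sum of replication-dependent genes was 496 TPM in the second table and 254 CPM, against 383 TPM. The count of histone genes 2-fold apart between animals, 0 as reported, was 1 with spike-in scaling (Hist1h2bq), 3 at a mean count of 10 (Hist1h2bk, H1fx and Hist1h2ao), 14 with a count of 1 in either library, and 2 in the second table (Hist1h4c and H1fx). Genes 2-fold apart between the tables numbered 14 with a pseudocount of 1 and 9 at a mean of 5 TPM, against 25. The assignment error exceeded 10% in 21 genes at a mean count of 10, against 5, and exceeded 20% in 2. The log2 ratio of H2afj over H2afx was -0.58 in the second table, against 0.62. Where no cause is given by fewer or more genes being tested, the cause was not tested. Histone genes held about 0.05% of reads.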
